A study of Mus musculus with 4 samples.

Results

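The genes described here encode cathepsins, most of which are proteases of the lysosome, and the subunits of the vacuolar proton pump (V-ATPase), which acidifies lysosomes and endosomes. They were taken by name from the deposited expression table: each symbol made of Cts and 1 or more lower-case letters or digits, and each symbol beginning with Atp6v or Atp6ap, except Atp6v0d2. The rule uses no expression value. It finds 35 of the 17335 genes in the table, 14 cathepsins and 21 pump genes.

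RNA-seq was performed in gonadal white adipose tissue (gWAT) of female mice that had been fed high-fat diet (HFD, 60% of calories from fat) for 18 weeks. Mice with adipocyte-specific Dnmt1 knockout (AD1KO) carry floxed Dnmt1 and adiponectin-Cre, which is mainly active in mature adipocytes, while the RNA came from whole tissue with all its cell types. The controls were littermates with floxed Dnmt1 (fl/fl), so both groups carry the floxed allele and both received HFD. RNA of 4 mice per group was combined in equal amounts before sequencing, so each group is 1 library, the spread between mice was not measured, and no test of the genotypes can be made. Expression is given as FPKM, fragments scaled to transcript length and to library depth.

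Cathepsins are made as inactive precursors, and most are carried to the lysosome and activated there at the low pH that the pump maintains. Most are cysteine proteases, while cathepsins D and E are aspartic and cathepsins A and G serine enzymes. The pump has a cytosolic V1 sector that splits ATP and a membrane V0 sector that moves protons, and several subunits exist as isoforms with different tissue ranges. In obese adipose tissue, macrophages around dying adipocytes are known for a large lysosomal content, and lysosomal genes as a group respond to transcription factors of the MiT/TFE family, which bind an E-box motif called CLEAR.

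The depth behind each value was estimated from the steps in which low FPKM values fall, at 17700000 reads for the fl/fl library and 17500000 for the AD1KO library. The ratio given for a gene is the log2 of FPKM plus 0.01 in AD1KO over that in fl/fl. The comparison took in 15839 genes that reached 0.1 FPKM in either library, and those past 0.5 on the log2 scale count as lower or higher, which is the cutoff used in the study. Each 95% counting interval is an exact Clopper-Pearson interval on the estimated reads and covers counting error only. Dnmt1, the targeted gene, was at 6.99 FPKM in fl/fl and 3.33 FPKM in AD1KO, that is, -1.07 on the log2 scale (interval -1.27 to -0.87). The lower value is in the library labelled AD1KO.

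Promoter sequence is shown first for 6 members, because the pH-dependent enzymes and the pump are textbook targets of MiT/TFE factors and Ctss has different letters at its start. RefSeq promoters of the GRCm38.p6 build, which lie around the transcript start, were matched for 26 of the 35 members. Those of Ctsb, Ctse, Ctsh, Ctsw, Atp6v0a2, Atp6v1b2, Atp6v1c1, Atp6v1g1 and Atp6v1h were not matched. In the first 5 windows of 60 bases the capitals mark CACGTG, the E-box at the core of the CLEAR motif. In the Ctss window they mark GAAACCGAAA, a form of the interferon-stimulated response element (searched as GAAA, any 2 bases, GAAA), and ACTTCCTC, the reverse strand of GAGGAAGT, a motif of the type bound by the myeloid factor PU.1.
Ctsd (chr7:142387896-142387955, minus strand): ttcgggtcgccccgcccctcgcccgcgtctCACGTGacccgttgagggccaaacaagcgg
Ctsa (chr2:164833728-164833787, plus strand): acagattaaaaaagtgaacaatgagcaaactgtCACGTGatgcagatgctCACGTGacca
Atp6v0b (chr4:117887318-117887377, minus strand): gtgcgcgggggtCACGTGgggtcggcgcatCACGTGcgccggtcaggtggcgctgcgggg
Atp6v0d1 (chr8:105566050-105566109, minus strand): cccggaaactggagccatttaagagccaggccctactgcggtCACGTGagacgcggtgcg
Atp6v1a (chr16:44139361-44139420, minus strand): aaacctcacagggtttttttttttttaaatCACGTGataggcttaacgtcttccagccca
Ctss (chr3:95526741-95526800, plus strand): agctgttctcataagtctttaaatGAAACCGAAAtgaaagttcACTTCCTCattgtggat

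The E-box CACGTG, which reads the same on both strands, was found in promoters of 8 of the 26 members, 4 cathepsins (Ctsa, Ctsd, Ctsf and Ctsl) and 4 pump genes (Atp6v0b, Atp6v0d1, Atp6v0e and Atp6v1a). It occurs in 7.15% of the 32851 promoters of the same length. The longer TCACGTGA, which contains it and is also its own reverse complement, was found in 5 members and in 0.974% of all promoters. GAGGAAGT, searched on both strands, occurred in Ctss and Ctsc and in 3.2% of all promoters. The interferon-stimulated response element, on both strands, occurred in Ctss, Ctso and Atp6v1d and in 3.44% of all promoters. A member was counted if any of its matched promoters held the motif, while the shares are per promoter, so the units differ. These matches describe letters in a window and do not show binding.

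As a group the cathepsins were lower in AD1KO gWAT. Of 14 cathepsin genes, all of which passed the filter on low values, 9 were lower by at least 0.5 on the log2 scale and 0 were higher. Among all genes compared, 19.1% were lower and 14.3% were higher. The median log2 ratio was -0.73 for the cathepsins and -0.04 for all genes. For 7 of the 14 the whole counting interval lay at or below -0.5, as it did for 8.31% of all genes. Cathepsins at 30 FPKM or more were lower in 7 of 11 cases, against 15.6% of the genes at that level. For 6 of these 11 the whole interval lay at or below -0.5, against 368 of the 2805 genes at that level. Summed over the family, expression went from 6186 FPKM in fl/fl to 4288 FPKM in AD1KO, and the share of all reads from 1.47% to 1.07%.

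**Figure D1:**
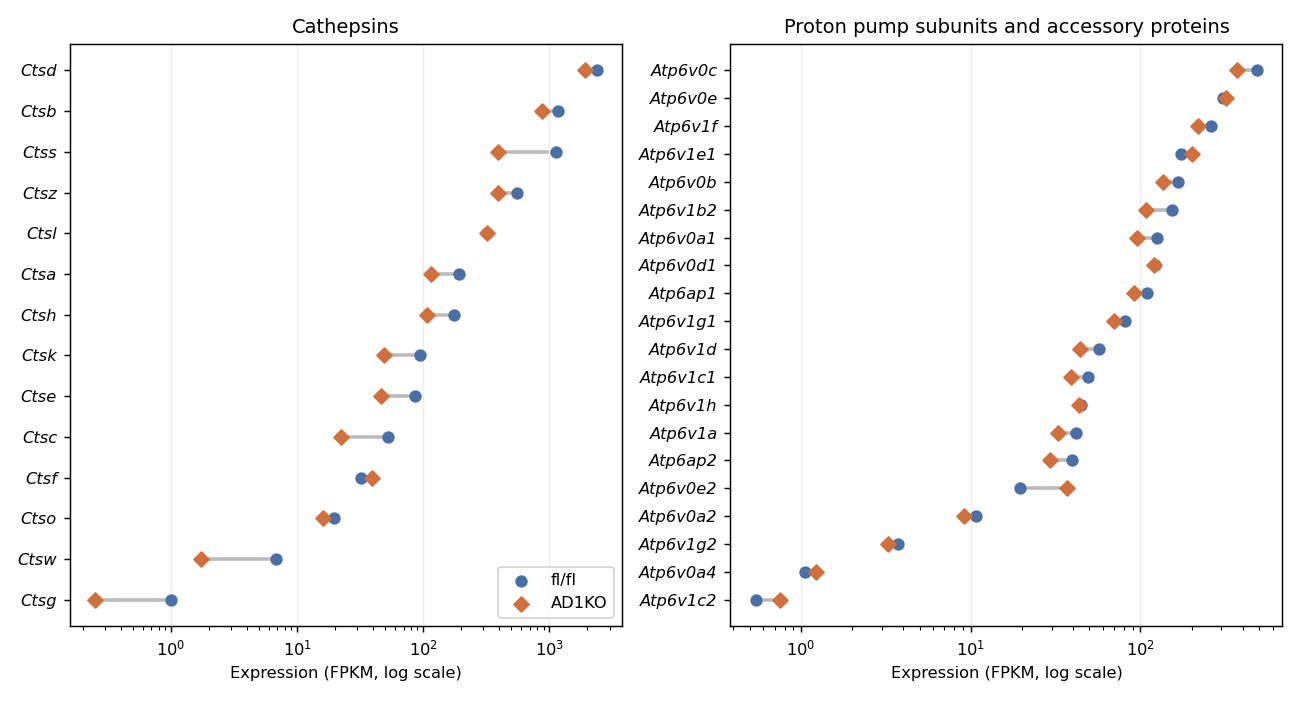
Expression of the cathepsins (left) and of the pump genes (right) in FPKM on a log scale, with fl/fl as circles and AD1KO as diamonds, 1 pooled library each. Ctss is the abundant gene with the widest gap, 1129 against 389 FPKM, while Ctsl and Atp6v0d1 lie nearly on top of each other, and Atp6v1e2, listed at 0 in fl/fl, is not drawn.

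The adipose genes Fabp4 and Adipoq were abundant in both libraries. Fabp4 was at 11151 FPKM in fl/fl and 15920 FPKM in AD1KO, and Adipoq at 1911 and 3318 FPKM. In whole tissue, fewer cells of a type and less RNA per cell cannot be told apart, and marker levels moved with the cathepsins. All 10 macrophage markers were below 0 and 9 were lower by 0.5, with a median of -0.89 and a summed level of 3497 FPKM in fl/fl and 1735 FPKM in AD1KO. All 10 markers of T, NK and cytotoxic cells were lower, with a median of -1.95, from 82.9 to 22.4 FPKM in sum, and so were all 7 of mast cells, with a median of -1.37, from 378 to 139 FPKM in sum. Among all genes compared, 19.1% were lower and 53.8% were below 0. None of these markers was at 0 in either library. Beside them, Ctss at -1.54 and Ctsc at -1.24 lay within the range of single macrophage markers, -2.03 to -0.48. Ctsw at -1.97 lay within that of T, NK and cytotoxic markers, -2.91 for Ncr1 to -1.50 for Cd8b1. These ranges overlap, as Ctsw also lay within the macrophage range and Ctss within that of T, NK and cytotoxic markers. The values therefore do not assign a cathepsin to a cell type. The part of these cell types in the fall of the cathepsins was not tested.

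Adipocyte markers went the other way, with 8 of 10 higher, 10 of 10 above 0, a median of 0.56 and a summed level of 19422 FPKM in fl/fl and 29544 FPKM in AD1KO. Beside this and the lists below, 14.3% of all genes compared were higher and 19.1% lower. Of 8 neutrophil markers compared, 3 were lower and 4 higher, with 47.6 and 71.6 FPKM in sum and Mpo listed at 0 in fl/fl. Most of that sum was S100a8, at 32.7 FPKM in fl/fl and 57.3 FPKM in AD1KO, and 4 of the 8 counting intervals held 0. Among B cell markers 2 of 4 were lower, with 85.5 and 56.6 FPKM in sum. Of 7 markers of reproductive tract epithelium 4 were lower, with 19.9 and 13.8 FPKM in sum and Pax8 listed at 0 in AD1KO. Ovgp1 went from 3.51 to 0.17 FPKM and Wfdc2 from 3.64 to 0.39 FPKM. Krt8, at 5.32 and 6.42 FPKM, and Krt18, at 5.72 and 5.91 FPKM, did not reach the cutoff and made up much of the sum. The part of these lists in the values of the pump and the cathepsins was not tested.

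Cathepsin S, a cysteine protease of antigen-presenting cells that trims the invariant chain of MHC class II, had the largest fall among the abundant members. Ctss (gene 13040, mm9 chromosome 3, 95330708 to 95360325, plus strand) measured 1129 FPKM in fl/fl against 388.7 FPKM in AD1KO, with 24765 and 8428 reads behind them. Its log2 ratio was -1.54 (interval -1.57 to -1.50). In fl/fl it was the third most abundant cathepsin, and its share of the summed cathepsin FPKM went from 18.3% to 9.07%. Ctss alone made up 39% of the net fall of the family's summed FPKM. Without Ctss the median log2 ratio of the other 13 was -0.70, and 8 of them were lower.

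Cathepsin K, a collagen-degrading enzyme best known from osteoclasts, is encoded next to Ctss. Ctsk (gene 13038, mm9 chromosome 3, 95303208 to 95313284, plus strand) ends 17424 bases before Ctss begins. It was at 94.4 FPKM in fl/fl and 49.0 FPKM in AD1KO, which is -0.95 on the log2 scale (interval -1.05 to -0.85). The difference between the log2 ratios of Ctss and Ctsk was -0.59, with a counting interval from -0.70 to -0.49, so these neighbours fell by different amounts in these libraries.

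Cathepsin C, the dipeptidyl peptidase that activates granule serine proteases of cytotoxic cells, mast cells and neutrophils, was at 53.1 FPKM in fl/fl and 22.5 FPKM in AD1KO. The log2 ratio of Ctsc was -1.24 (interval -1.30 to -1.17). Cathepsin W, which is known from NK and cytotoxic T cells, was covered by 159 reads in fl/fl and 40 in AD1KO, or 6.79 and 1.73 FPKM, a log2 ratio of -1.97 (interval -2.51 to -1.47). Cathepsin G, a granule protease of neutrophils and mast cells, was at 1.01 and 0.25 FPKM. With about 16 reads against 4, the ratio of Ctsg was -1.97 and its interval from -4.02 to -0.35 reached above -0.5. Ctsw and Ctsg thus had the lowest ratios and the fewest reads of the family, and without them 7 of the other 12 cathepsins were lower, with a median of -0.60.

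Of the cysteine exopeptidases, cathepsin H, an aminopeptidase, was at 174 FPKM in fl/fl and 107 FPKM in AD1KO, and the ratio of Ctsh was -0.70 (interval -0.77 to -0.63). Cathepsin Z, a carboxypeptidase, went from 553.6 to 389.3 FPKM. At -0.51 with an interval from -0.55 to -0.47, Ctsz was just past the cutoff, and it fell short of it when the libraries were rescaled by any of 3 other methods, with values from -0.46 to -0.42.

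The aspartic cathepsins differed in level and in ratio. Cathepsin D, the main aspartic protease of lysosomes, was the most abundant member, at 2360 FPKM in fl/fl and 1917 FPKM in AD1KO, and ranked 22nd and 27th among all genes. Its log2 ratio of -0.30 (interval -0.32 to -0.28) lay below 0 but did not reach the cutoff. Ctse, an endosomal relative found mainly in immune cells and gastric epithelium, was at 85.6 and 46.4 FPKM, with a ratio of -0.88 (interval -0.95 to -0.81). Of the serine enzymes, cathepsin A, a carboxypeptidase that also protects lysosomal neuraminidase and beta-galactosidase, was at 193 and 115 FPKM (log2 ratio -0.75, interval -0.80 to -0.71). Ctsa has 2 copies of the E-box in the window shown above and the lowest ratio among the 8 members with that motif.

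The other 4 cathepsins did not reach the cutoff. Cathepsin B, an abundant cysteine protease of most cell types, was at 1163 FPKM in fl/fl and 876.7 FPKM in AD1KO (log2 ratio -0.41, interval -0.42 to -0.39). Ctso, a little-studied cysteine cathepsin, was at 19.6 and 16.0 FPKM (log2 ratio -0.29). Ctsl, the broadly expressed cathepsin L, was at 320 and 318 FPKM, and its interval from -0.04 to 0.02 held 0. Ctsf was the 1 cathepsin with a higher value in AD1KO, 39.3 against 32.0 FPKM, with a ratio of 0.30 (interval 0.18 to 0.42). The difference between Ctsk and Ctsl was -0.94, with a counting interval from -1.04 to -0.83.

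These unequal changes altered the order of the family. In fl/fl the order of FPKM levels was Ctsd, Ctsb, Ctss, Ctsz, Ctsl, Ctsa, Ctsh, Ctsk, Ctse, Ctsc, Ctsf, Ctso, Ctsw and Ctsg, and no neighbours in it had overlapping counting intervals. In AD1KO, Ctsz at 389.3 FPKM and Ctss at 388.7 FPKM could not be told apart, nor could Ctsk at 49.0 and Ctse at 46.4 FPKM, and Ctsf stood above Ctsc.

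**Figure D2:**
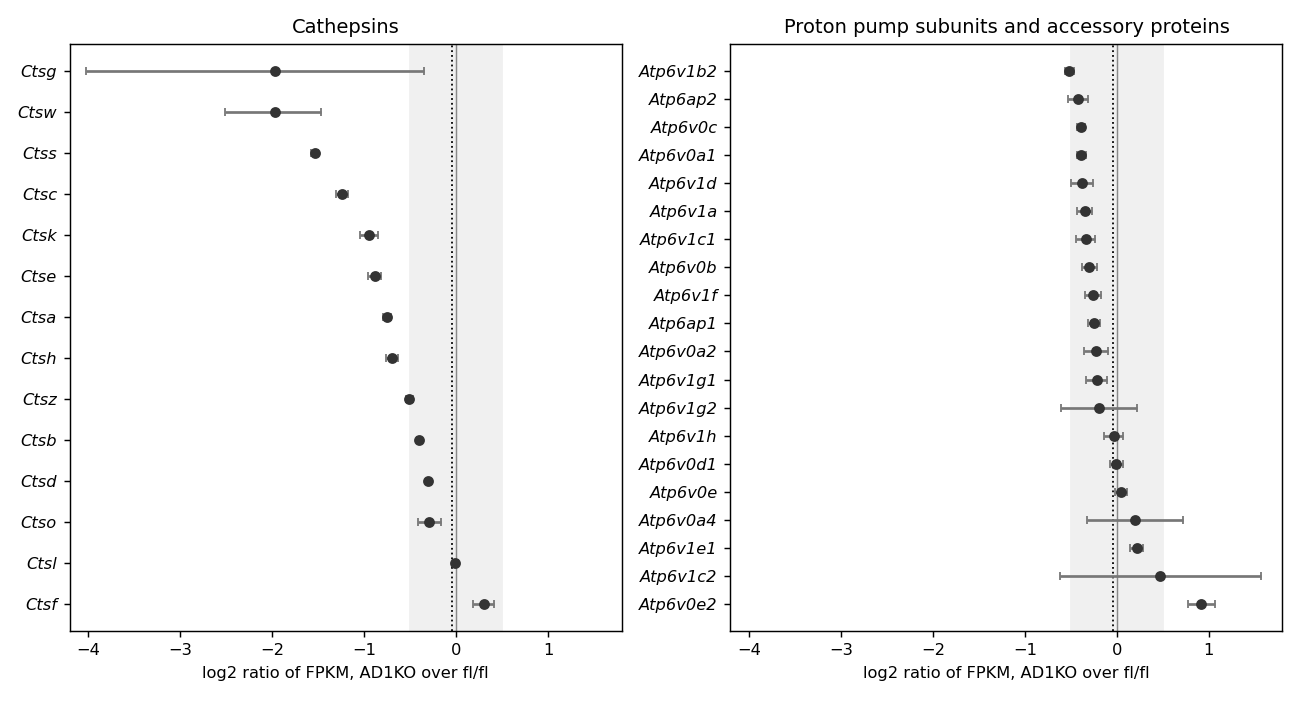
Log2 ratio of FPKM in AD1KO over fl/fl for each cathepsin (left) and pump gene (right), with the 95% counting interval as bars, the range within 0.5 of 0 in grey and the median of all compared genes, -0.04, as a dotted line. Cathepsins spread from -1.97 to 0.30, whereas all pump genes but Atp6v1b2 at -0.51 and Atp6v0e2 at 0.92 lie in the grey range.

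The pump genes moved less. Atp6v1e2 was listed at 0 in fl/fl and at 0.06 FPKM, about 1 read, in AD1KO, so it did not pass the filter, and as both values lie within the 3 reads that a count of 0 allows, no ratio is given. Of the other 20 pump genes, 1 was lower and 1 higher by 0.5, against 19.1% and 14.3% of all genes, which for 20 genes is fewer calls than the background. Their median log2 ratio was -0.24, and 15 of the 20 lay below 0, against 53.8% of all genes. The whole counting interval lay below 0 for 12, against 29% of all genes, and above 0 for 2. Clearing 0 depends on the number of reads, and most pump genes were well covered. At 30 FPKM or more in either library, it lay below 0 for 11 of 16 pump genes and 1179 of 2805 genes. Summed expression was 2255 FPKM in fl/fl and 1970 FPKM in AD1KO.

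In the V1 sector, the catalytic A subunit and the B subunit form the ring that splits ATP. Atp6v1a was at 41.7 FPKM in fl/fl and 32.7 FPKM in AD1KO (log2 ratio -0.35, interval -0.43 to -0.27). Atp6v1b2 (gene 11966, mm9 chromosome 8, 71612545 to 71637610, plus strand), the B isoform of most tissues, was at 154 and 108 FPKM. Its log2 ratio of -0.51 (interval -0.57 to -0.46) was the lowest of the pump genes and fell short of the cutoff under the 3 other scalings, at -0.47 to -0.43.

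The rotor and stalk subunits of V1 did not reach the cutoff. Atp6v1d, in the central rotor, was at 57.0 and 44.0 FPKM (log2 ratio -0.37), and Atp6v1f, its partner there, at 259.5 and 217.6 FPKM (-0.25). Atp6v1c1, whose product joins V1 to V0, was at 49.1 and 38.9 FPKM (-0.34), and Atp6v1g1, of the outer stalks, at 81.0 and 69.5 FPKM (-0.22). Each of these intervals lay below 0. Atp6v1h, a regulatory subunit, was at 44.6 and 43.5 FPKM, with an interval from -0.14 to 0.07. Atp6v1e1, the stalk partner of the G subunit, had 173 FPKM in fl/fl and 201 FPKM in AD1KO, so that its ratio of 0.22 (interval 0.15 to 0.28) lay above 0.

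The restricted isoforms of V1 were low in both libraries. Atp6v1g2, known from neurons, was at 3.72 and 3.25 FPKM. Atp6v1c2, known from kidney and lung, had 14 and 19 reads, or 0.54 and 0.75 FPKM. The intervals of both held 0, running from -0.60 to 0.21 for Atp6v1g2 and from -0.62 to 1.56 for Atp6v1c2.

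In the V0 sector, Atp6v0c and Atp6v0b encode the proteolipids of the ring that carries protons. Atp6v0c was the most abundant pump gene, at 488.6 FPKM in fl/fl and 372.6 FPKM in AD1KO (log2 ratio -0.39, interval -0.44 to -0.35), and Atp6v0b was at 167 and 136 FPKM (-0.30, interval -0.38 to -0.22). Subunit d connects the ring to the V1 rotor, and its broad isoform Atp6v0d1 was at 121.0 and 120.6 FPKM (interval -0.08 to 0.07). The accessory genes Atp6ap1 and Atp6ap2, of which the latter encodes the prorenin receptor, were at 109 and 91.8 FPKM and at 39.5 and 29.4 FPKM, with log2 ratios of -0.25 and -0.43.

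Isoforms of 3 V0 subunits shifted against each other. Subunit a places the pump in particular membranes, and its isoforms Atp6v0a1 and Atp6v0a2 were at 125 and 95.8 FPKM and at 10.7 and 9.15 FPKM in fl/fl and AD1KO. The kidney isoform Atp6v0a4 was low, at 1.06 and 1.22 FPKM from 60 and 68 reads, and its interval from -0.33 to 0.72 held 0. The a3 isoform, whose gene Tcirg1 falls outside the naming rule and which is known from osteoclast and macrophage lysosomes, was at 70.5 and 30.8 FPKM (log2 ratio -1.19). Tcirg1 gave 34% of the summed FPKM of subunit a in fl/fl and 22.5% in AD1KO, and its log2 ratio was below that of Atp6v0a1 by -0.81 (counting interval -0.91 to -0.71).

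A similar shift was seen for subunit d. Atp6v0d2, the isoform of osteoclasts and macrophages that the rule leaves out, was at 119.2 FPKM in fl/fl and 53.1 FPKM in AD1KO (log2 ratio -1.17). It gave 49.6% of subunit d in fl/fl and 30.6% in AD1KO, and the difference of its log2 ratio from that of Atp6v0d1 was -1.16 (counting interval -1.26 to -1.06). With Tcirg1 and Atp6v0d2 added, 3 of 22 pump genes were lower (13.6%, against 19.1% of all genes) and the median was -0.25. A list of 15 other V-ATPase proteins, which holds these and the pump's assembly factors and partners, had 2 lower genes (13.3%), both just named, and 1 higher (6.67%), Dmxl2, with a median of -0.14.

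Subunit e, a small membrane protein of V0, moved the other way. Its main gene, Atp6v0e, was at 308 and 317.8 FPKM, with an interval from -0.02 to 0.11. Atp6v0e2 (gene 76252, mm9 chromosome 6, 48487568 to 48491797, plus strand), known to be abundant in brain, rose from 19.5 FPKM in fl/fl to 36.8 FPKM in AD1KO, about 596 and 1112 reads. The interval of the log2 ratio, 0.92 (0.77 to 1.06), lies past 0.5 as it does for 4.19% of all genes. Among genes at 30 FPKM or more in either library it does so for 210 of 2805. Its share of subunit e went from 5.95% to 10.4%, and its ratio exceeded that of Atp6v0e by 0.87 (counting interval 0.71 to 1.03).

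**Figure D3:**
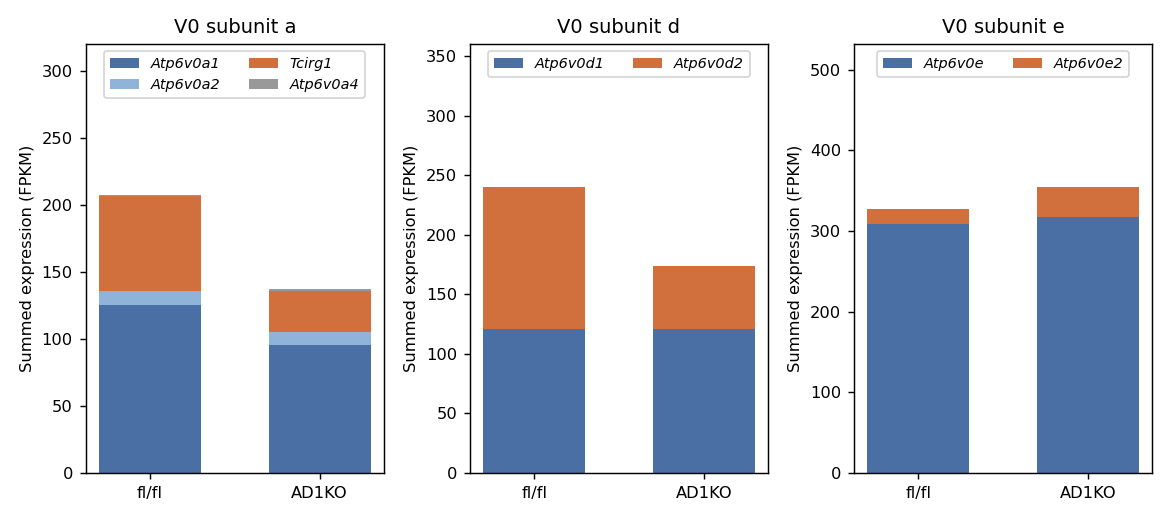
Summed FPKM of the isoforms of V0 subunits a, d and e in fl/fl and AD1KO, stacked by gene, 1 pooled library each. Tcirg1 and Atp6v0d2 shrink in AD1KO from 70.5 to 30.8 and from 119.2 to 53.1 FPKM, Atp6v0d1 stays near 121 FPKM, and Atp6v0e2 grows from 19.5 to 36.8 FPKM.

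Other lysosomal genes were also compared, beside the 19.1% of all genes that were lower and the 14.3% that were higher. A list of 39 genes held lysosomal hydrolases other than cathepsins and some soluble lysosomal proteins that are not enzymes. Of these 39, 15 (38.5%) were lower and 1 (2.56%) was higher, with a median of -0.38. The lowest was Lgmn, the asparaginyl protease that processes cathepsins, at 322 FPKM in fl/fl and 166 FPKM in AD1KO (log2 ratio -0.96), next to Lipa, the lysosomal acid lipase, at 178 and 91.7 FPKM (-0.95). The highest were Arsb, a sulfatase, at 28.5 and 45.4 FPKM (0.67), and Acp5, an acid phosphatase, at 217 and 306 FPKM (0.50, just short of the cutoff). Of 24 lysosomal membrane proteins 8 (33.3%) were lower and 3 (12.5%) higher, with a median of -0.19. They ranged from -1.16 for the leukocyte protein Laptm5 to 0.87 for Abcb9. Cd68, at 702 and 326 FPKM (-1.11), is in this list and is also counted among the macrophage markers. Lamp1, a general lysosomal membrane protein, was at 499.9 and 460.4 FPKM (-0.12).

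The 199 genes outside the rule that the table itself annotates with the GO term lysosome had 56 of 191 lower (29.3%, against 19.1% of all genes), 12 higher (6.28%, against 14.3%) and a median of -0.18. Of the cathepsin inhibitors, cystatin C (Cst3) was at 1827 FPKM in fl/fl and 1571 FPKM in AD1KO (log2 ratio -0.22) and cystatin B (Cstb) at 488.3 and 368.4 FPKM (-0.41). In that list 3 of 10 genes were lower and 1 was higher, again beside 19.1% and 14.3% of all genes. Of the 3, Stfa3 was at 0.19 FPKM in fl/fl and listed at 0 in AD1KO, about 1 read and 0, so its call is not reliable. For 1 of the 10 the whole counting interval lay at or below -0.5, as it did for 8.31% of all genes. Cst7, an inhibitor made by NK and myeloid cells, was lowest among those at 5 FPKM or more, from 6.89 to 1.25 FPKM (-2.45), and Serpina3n was highest, from 296.6 to 451.2 FPKM (0.61).

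**Figure D4:**
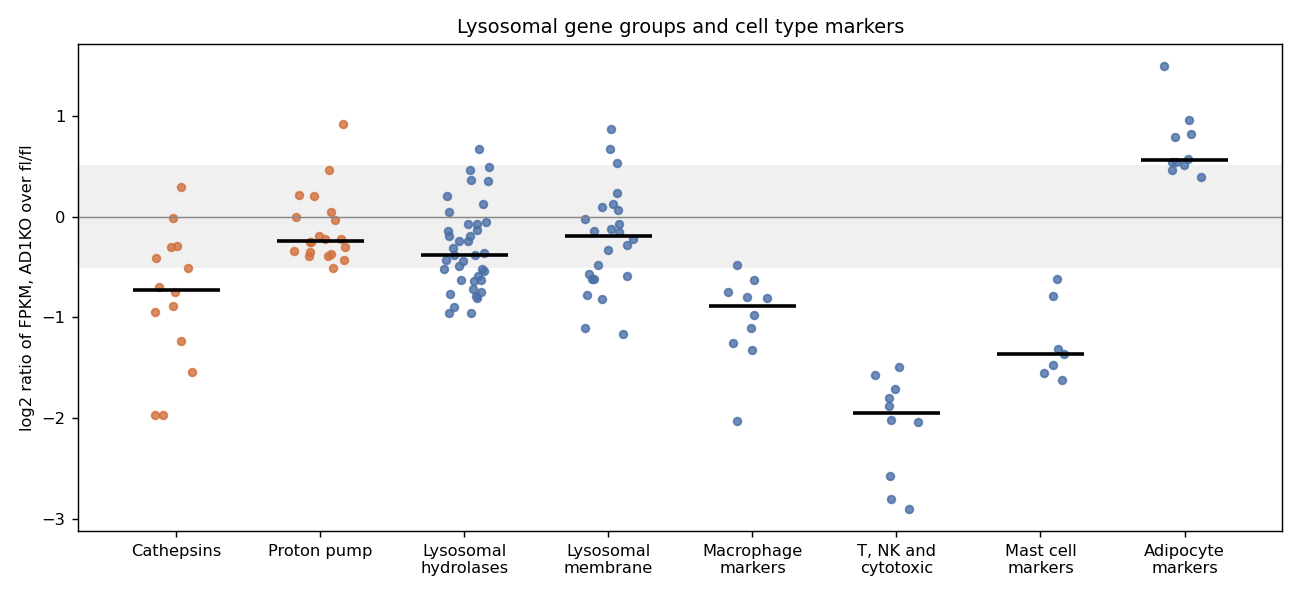
Log2 ratio of FPKM in AD1KO over fl/fl for each gene of the cathepsins and the pump (orange) and of the lists of other lysosomal genes and cell type markers (blue), with the median of each as a black bar and the range within 0.5 of 0 in grey. The cathepsin median of -0.73 lies near the macrophage median of -0.89, and the pump median of -0.24 lies between it and the adipocyte median of 0.56. Cd68 is drawn both as a lysosomal membrane protein and as a macrophage marker.

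The members with and without the E-box were set side by side as a description. The 4 cathepsins with CACGTG in the promoter window had log2 ratios from -0.75 to 0.30 with a median of -0.15, and the 6 without it from -1.97 to -0.29 with a median of -1.09. Among pump genes the 4 with it ran from -0.35 to 0.04 with a median of -0.15, and the 11 without it from -0.43 to 0.92 with a median of -0.25. Ctss and Ctsc, the members whose windows hold GAGGAAGT, had ratios of -1.54 and -1.24. Ctso and Atp6v1d, which share the interferon-stimulated response element with Ctss, had ratios of -0.29 and -0.37 and did not reach the cutoff. The numbers of genes are small and promoters were matched for only some of them.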

How the data were processed

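A sequencing company measured 1 library of pooled gWAT RNA per group. The authors deposited 1 table with FPKM per gene for both libraries, after clean reads were aligned to mouse mm9. The aligner and the program that gave FPKM are not given in the sources used here. A value of 0 is written as 0.01 and was set back to 0. The table's own columns of fold change, FDR and P-value hold the authors' comparison and were not used. Bisulfite libraries (2 samples) belong to other animals and were not used here.

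The table holds no counts. Reads were recovered from FPKM and transcript length, by finding the depth of each library and the length correction, 118 bases, that put low values on whole numbers. Of 534 low values per library, 82% in fl/fl and 79.8% in AD1KO then lay within 0.15 of a whole read. Both libraries together gave a median of 572 reads per compared gene, and under 50 for 3 members. Reads are not independent molecules, so intervals cover counting error only, as do the intervals for 5 pairs of genes, which use the normal approximation on the log scale.

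The members and lists were chosen with earlier results of these data known. All members were described, and those at 1 FPKM or more, restricted isoforms and genes listed at 0 were named with both values. From each list of other lysosomal genes, at most the 2 highest and 2 lowest at 5 FPKM or more were named, with Tcirg1, Atp6v0d2, Cst3 and Cstb. Lamp1, Dmxl2, Tfe3, Fabp4, Adipoq, Mpo, Pax8, Stfa3 and S100a8 and the gene pairs were named after their values were seen. So were Tfec, Rragb, Rragd and the Lamtor genes, and Ovgp1, Wfdc2, Krt8 and Krt18. Alternatives were 3 scalings, 2 pseudocounts, 2 filters, a cutoff of 1 and calls on the whole interval. The steps were tested on simulated data. Positions are from GENCODE on mm9, except promoters, which are from RefSeq on GRCm38.p6. Python 3.11.15, NumPy 2.4.6, pandas 2.3.3, SciPy 1.17.1 and Matplotlib 3.10.9 were used.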

Additional observations from a re-analysis of the deposited data

Results flagged for a closer look

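An unnamed transcript that the table annotates as an Atp6v0c protein lies outside the naming rule. It was listed at 0 in fl/fl and at 0.58 FPKM in AD1KO, about 10 reads, above the 3 reads that a count of 0 allows. It drew attention because it had signal in AD1KO and none in fl/fl. As it may share reads with Atp6v0c, its value is uncertain, and adding its reads to those of Atp6v0c left a log2 ratio of -0.39 (interval -0.43 to -0.34).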

How the results depend on the processing

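No paired analysis was possible because each genotype was sequenced once, as a pool. The cathepsins lower in AD1KO numbered 8 to 9 under each scaling, pseudocount and filter, 7 by the whole counting interval and 4 at a cutoff of 1, and 0 were higher in each. Their median ran from -0.73 to -0.64 and that of the pump genes from -0.25 to -0.15. The pump genes lower in AD1KO were 0 in place of 1 under the 3 scalings, the whole interval and a cutoff of 1. Those higher were 2 in place of 1 under the 3 scalings, where Atp6v1c2 reached 0.51 to 0.55, and with no filter, which adds Atp6v1e2, and 0 at a cutoff of 1. Scaling raised each log2 ratio by 0.04 to 0.09, which turned the sign of Ctsl, Atp6v0d1 and Atp6v1h, all within 0.09 of 0. Over all genes, 3029 lower and 2265 higher became 1417 and 910 at a cutoff of 1, 1661 and 965 with a pseudocount of 1 FPKM, and 1317 and 664 by the whole interval, and 1281 were higher with a minimum of 1 FPKM. Each of these calls fewer genes by construction. Depth limits Ctsg, whose ratio was -0.69 with a pseudocount of 1 FPKM, and Atp6v1c2, Atp6v0a4 and Atp6v1e2.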

Other observations

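The factors and receptors that serve lysosomal genes and enzymes were measured as well. A list of 18 genes held MiT/TFE factors, Ragulator genes, which anchor nutrient sensing at the lysosome, and other genes such as Fnip2 and Mtor. Of these 18, 5 were lower (27.8%, against 19.1% of all genes) and 0 higher. Their median was -0.29, and 1 had its whole counting interval at or below -0.5. The lower genes were Tfeb, Tfec, Fnip2, Rragb and Rragd. Tfec, Rragb and Rragd rest on few reads, 76, 20 and 58 in fl/fl and 38, 6 and 26 in AD1KO. The Ragulator genes, Lamtor1 to Lamtor5, ran from -0.26 to 0.09. Tfeb, the factor best known for binding CLEAR motifs, was at 17.4 FPKM in fl/fl and 11.9 FPKM in AD1KO (log2 ratio -0.54, counting interval -0.72 to -0.37), and Tfe3 was at 33.3 and 25.2 FPKM (-0.41). Fnip2 was at 5.70 and 2.84 FPKM (-1.0), while Mtor was at 4.21 and 5.49 FPKM (0.38). Of 6 genes that sort enzymes to the lysosome, 0 were lower and 1 was higher (16.7%, against 14.3% of all genes). The mannose 6-phosphate receptors Igf2r and M6pr were at 12.3 and 8.74 FPKM (-0.49) and at 107 and 79.9 FPKM (-0.43), and the sorting receptor Sort1 was at 33.9 and 48.3 FPKM (0.51).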
